A study of Mus musculus with 12 samples.

Results

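The mouse genes named Zfp followed by a number were described in the hippocampus and the cortex of male 3×TgAD mice. On the array, 240 genes carry such a name. A gene was selected on its measured detection: 153 of the 240 had 1 probe that 6 or more of the 12 arrays detected, at a detection p-value no higher than 0.05. The brightest such probe, by mean signal across arrays, stands for its gene. Of the other 87 genes, 68 were detected on 0 arrays. At the edge of the rule, *Zfp189*, *Zfp593* and *Zfp61* were detected on all 6 hippocampal arrays and on 0 cortical arrays, and *Zfp169* on 6 cortical arrays and 0 hippocampal arrays, with mean signals from 83.9 to 91.9. Just outside it, *Zfp382* and *Zfp13* were detected on 5 arrays, each with a mean signal of 82.3.

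The arrays were Illumina mouse BeadChips, with 3 per tissue and treatment. The 3×TgAD line carries mutant human amyloid precursor protein and tau transgenes, driven in neurons by the Thy1 promoter, and a mutant presenilin 1 gene, so all groups carry these alleles and no wild type group was measured. Mice were 14 months old at the start and 18 months old at tissue collection. For 4 months they drank amitriptyline hydrochloride (AMI), a tricyclic antidepressant, at 100 µg/g body weight, or plain water (vehicle), and both groups were also injected with bromodeoxyuridine. The labels do not tie samples to mice, so p-values measure the spread between the arrays. Hippocampal and cortical arrays were read into separate tables by different software versions, and tissue and table cannot be told apart.

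Most Zfp proteins are built from repeated C2H2 fingers, short folds that hold a zinc ion and read DNA bases in a row. Many also carry a KRAB domain, which recruits the corepressor Trim28 and, through it, the histone methyltransferase Setdb1, and so silences chromatin, above all at transposable elements. Other genes with a Zfp name bind RNA, join ubiquitin to proteins or activate transcription. The KRAB genes lie in clusters of recent duplicates and are mostly transcribed at low levels.

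The Zfp genes were dim on these arrays. The median signal of the 153 genes was 165.0, with a range from 83.9 to 3485.6, against a median of 287.9 for the 9830 genes detected by the same rule. The median of undetected probes lay between 52.2 and 73.2 per array. Since background was not subtracted, log2 differences of dim probes are compressed. The brightest genes were *Zfp365* (mean signal 3485.6), which encodes a binding partner of DISC1, *Zfp238* (3391.8), which encodes the repressor now called Zbtb18 that cortical and hippocampal neurons need to develop, *Zfp523* (3055.1), *Zfp46* (1601.5) and *Zfp251* (1139.2). The dimmest were *Zfp61* (86.9), *Zfp595* (85.0), *Zfp646* (84.7), *Zfp418* (84.3) and *Zfp169* (83.9). These levels come from different probes, so they give no order of transcript amounts.

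Chromosome 7 held 40 of the 153 genes, or 26.1%, against 6.53% of all detected genes. Of these, 12 lay in band 7qA1, 10 in 7qA3 and 8 in 7qF3. The annotation gave no chromosome for 10 of the Zfp genes (6.5%) and for 14.7% of all detected genes, and these are counted in the totals of both shares. Chromosome 17 followed with 12 genes and chromosome 13 with 10.

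The probe sequences were examined because the family is repetitive. The finger-coding exons are much alike between members, and 4 of the 153 probes, each 50 bases long, were found to code for part of a finger in an open reading frame. They are shown because they are the probes placed in the repeated part, with the codons from the zinc-binding cysteine pair to the conserved phenylalanine in capitals.
Zfp688: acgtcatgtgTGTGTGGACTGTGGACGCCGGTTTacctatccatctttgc
Zfp771: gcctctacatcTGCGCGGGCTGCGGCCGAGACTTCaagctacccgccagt
Zfp825: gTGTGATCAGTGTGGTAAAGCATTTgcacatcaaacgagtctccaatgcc
Zfp97: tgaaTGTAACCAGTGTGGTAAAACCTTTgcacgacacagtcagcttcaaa

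No probe of the 153 coded for the linker between fingers. A run of 20 or more bases was shared with the probe of another gene symbol for 2 genes. Probes were compared only with other probes of the array and not with transcripts. A match to the transcript of another gene outside its probe would therefore not be seen. The *Zfp131* probe shared 48 bases with a probe of LOC100040573 and the *Zfp97* probe 28 bases with a probe of LOC626854, so the signals of these 2 genes are uncertain as to source.

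RefSeq (GRCm38.p6) gave a promoter window, from 250 bases before to 50 after the start site, for 125 of the 153 genes, taking the first listed start site. In 72.8% of them the observed CpG count was over 0.6 of the expected, against 36.4% of 27025 promoters of all genes and 71.0% of 7274 promoters of detected genes. Both strands were searched for GGGCGG (the GC box), for CCGGAAG (read by ETS factors), for CCAAT, for TATAAA, for TGACGTCA (read by CREB), for CACGTG (an E box) and for the core motifs of NRF1, YY1 and ZNF143. The ZNF143 core, read by the activator that *Zfp143* encodes, was in 5 of the 125 windows (4.0%), in 0.3% of all windows and in 0.7% of those of detected genes. The NRF1 core was in 4.8%, 1.0% and 1.8%, and TATAAA in 6.4%, 14.2% and 7.4%. A match is a run of letters and no measured binding site. The 5 windows with the ZNF143 core are shown, as the motif with the largest ratio of its share in Zfp genes to that in all genes, as 60 bases on the gene's strand with the core in capitals. It reads on the gene's strand in *Zfp692* and on the opposite strand in the other windows.
Zfp1, chr8:111643383-111643442, plus strand: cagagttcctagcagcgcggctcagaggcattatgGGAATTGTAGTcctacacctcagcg
Zfp93, chr7:24270322-24270381, plus strand: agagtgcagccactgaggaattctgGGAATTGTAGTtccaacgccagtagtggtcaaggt
Zfp128, chr7:12881118-12881177, plus strand: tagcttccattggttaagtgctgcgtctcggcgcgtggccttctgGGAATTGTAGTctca
Zfp692, chr11:58306996-58307055, plus strand: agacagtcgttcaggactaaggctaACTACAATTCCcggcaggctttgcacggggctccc
Zfp817 (RefSeq Zfp58), chr13:67500523-67500582, minus strand: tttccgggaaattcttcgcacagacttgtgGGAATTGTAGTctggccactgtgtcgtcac

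Between 49.0% and 51.7% of probes were detected per array. Of the 153 genes, between 142 and 150 were detected per array, a number that is high because the genes were selected on detection. The dissections were checked against marker genes. Of 4 tested hippocampal markers 3 were higher in the hippocampus, and of 5 cortical markers 4 were higher in the cortex. The CA1 marker *Spink8* read at most 179.5 on a cortical array and at least 831.2 on a hippocampal array, whereas *Wfs1*, also on the hippocampal list, was lower in the hippocampus by -0.55 (log2, adjusted p = 0.00764, limma). All 5 tested striatal markers were higher on the cortical arrays, where their summed signal ran from 3338.7 to 5016.8 against 767.4 to 1664.9 on the hippocampal arrays. The choroid plexus marker *Ttr* reached 47495.7 on vehicle hippocampal array 3 against at most 4825.2 on the other hippocampal arrays. Cortical arrays varied too: the summed signal of the detected choroid plexus markers ran from 1954.0 to 14953.4 on vehicle and from 1048.8 to 14101.1 on AMI arrays. Their part in the results below was not tested beyond leaving out arrays. In whole tissue, fewer cells of a type and less RNA per cell cannot be told apart.

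The first question was whether AMI changed Zfp transcripts in the hippocampus. More of the genes read above 0 than below 0 after AMI, and no single gene passed the test. The genes were read on the same arrays and are not independent replicates of the treatment, so this tilt describes the gene list. Of the 153 genes 151 were tested, 1 of which passed the detection filter through 1 treatment group alone. None had an adjusted p under 0.05 (limma over 13163 probes, of which 0% passed; smallest adjusted p of a Zfp gene 0.9996). The log2 difference, AMI minus vehicle, was above 0 for 109 genes and below 0 for 42, or 72.2% above 0 against 55.0% of all probes tested. The median difference was 0.06 over the Zfp genes and 0.01 over all probes. By brightness, 63.2% of 68 genes with a mean signal under 150 were above 0 against 56.4% of probes, 87.5% of 48 genes from 150 to 400 against 61.8%, and 68.6% of 35 genes of 400 or more against 47.9%. This tilt kept its direction under other scalings. After quantile normalization 67.5% were above 0 against 51.4% of all probes. After median centring it was 80.8% against 72.1%, a narrower gap.

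At an unadjusted p under 0.05, 6 genes were higher and 2 lower after AMI, against 1.44% of all probes higher and 0.904% lower. These counts are from the fit without pairing. Same-numbered hippocampal arrays deviated together, though the labels state no pairs. With the number as a block 14 genes were higher and 4 lower, 11.9% of the 151 against 8.08% of all probes. The smallest adjusted p was then 0.566 (limma). Without vehicle array 2 the 8 genes became 4, and without vehicle array 3, the array with the high *Ttr* signal, 6. The vehicle and AMI arrays did not overlap for 14 genes (9.27%), against 7.89% of all probes.

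*Zfp94*, a KRAB gene, and *Zfp87* had the smallest unadjusted p-values. On the scale of normalized log2 signals, where 0 is the mean of all probes of an array, *Zfp94* read 0.75, 0.84 and 1.23 on the vehicle arrays and 1.48, 1.58 and 1.51 on the AMI arrays of the hippocampus. All AMI arrays were above all vehicle arrays, and the difference was 0.58 ± 0.13 (SE, unadjusted p = 0.00217). In the cortex it read 1.05, 1.60 and 1.63 on vehicle and 1.41, 1.85 and 1.49 on AMI arrays, which overlapped, with a difference of 0.16 ± 0.18, or -0.03 without vehicle array 1. *Zfp94*, *Zfp87*, *Zfp277* and *Zfp37* were listed by the study as changed on these same arrays, so their values here are not independent evidence. The study used a z-ratio cut-off together with a looser false discovery rate than the threshold used here.

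*Zfp87* read 0.89, 0.95 and 0.92 on the vehicle arrays and 1.29, 1.34 and 1.47 on the AMI arrays of the hippocampus. The groups were narrow and did not overlap, with a difference of 0.44 ± 0.10 (unadjusted p = 0.00137). Its second detected probe, placed on the same transcript record, read 0.32, 0.22 and 0.29 on vehicle and 0.12, 0.35 and 0.32 on AMI arrays. That probe differed by -0.01 ± 0.10, so the separation was seen with 1 of the 2 probes.

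*Zfp367*, which encodes an activator described in erythroid cells, had the largest positive difference of any Zfp gene. It read -0.85, -0.08 and -0.77 on vehicle and -0.15, 0.24 and 0.21 on AMI arrays of the hippocampus, a difference of 0.66 ± 0.21 (unadjusted p = 0.0114), with vehicle array 2 above AMI array 1. Its cortical values, -0.58, 0.00 and 0.18 on vehicle and -0.39, 0.46 and 0.83 on AMI arrays, were as widely spread. *Zfp101* read from -0.46 to -0.32 on vehicle and -0.15, 0.39 and -0.22 on AMI arrays, a difference of 0.40 ± 0.16 that fell to 0.20 without AMI array 2. *Zfp619* differed by 0.22 ± 0.09 and *Zfp160*, the last of the 6, by 0.48 ± 0.20, with overlapping groups for *Zfp160*.

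Of the genes that read lower, *Zfp277*, whose protein is known as a partner of Polycomb repressors, read 2.55, 2.36 and 2.28 on vehicle and 2.10, 2.19 and 2.16 on AMI arrays of the hippocampus, a difference of -0.24 ± 0.10 (unadjusted p = 0.0465). In the cortex the order was turned, with 1.64, 1.58 and 1.67 on vehicle and 1.82, 1.80 and 1.77 on AMI arrays and a difference of 0.17 ± 0.08. It was the gene whose groups stood apart in both tissues in opposite directions. Its other detected probe, placed on another transcript record, gave 0.05 ± 0.09 there and a cortical difference of 0.12 ± 0.10. *Zfp189* read -0.09, -0.29 and -0.23 on vehicle and -0.60, -0.32 and -0.49 on AMI arrays, at signals close to background. *Zfp179*, now *Rnf112*, a brain RING finger GTPase, differed by -0.26 ± 0.14, or -0.10 without AMI array 3.

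**Figure D1:**
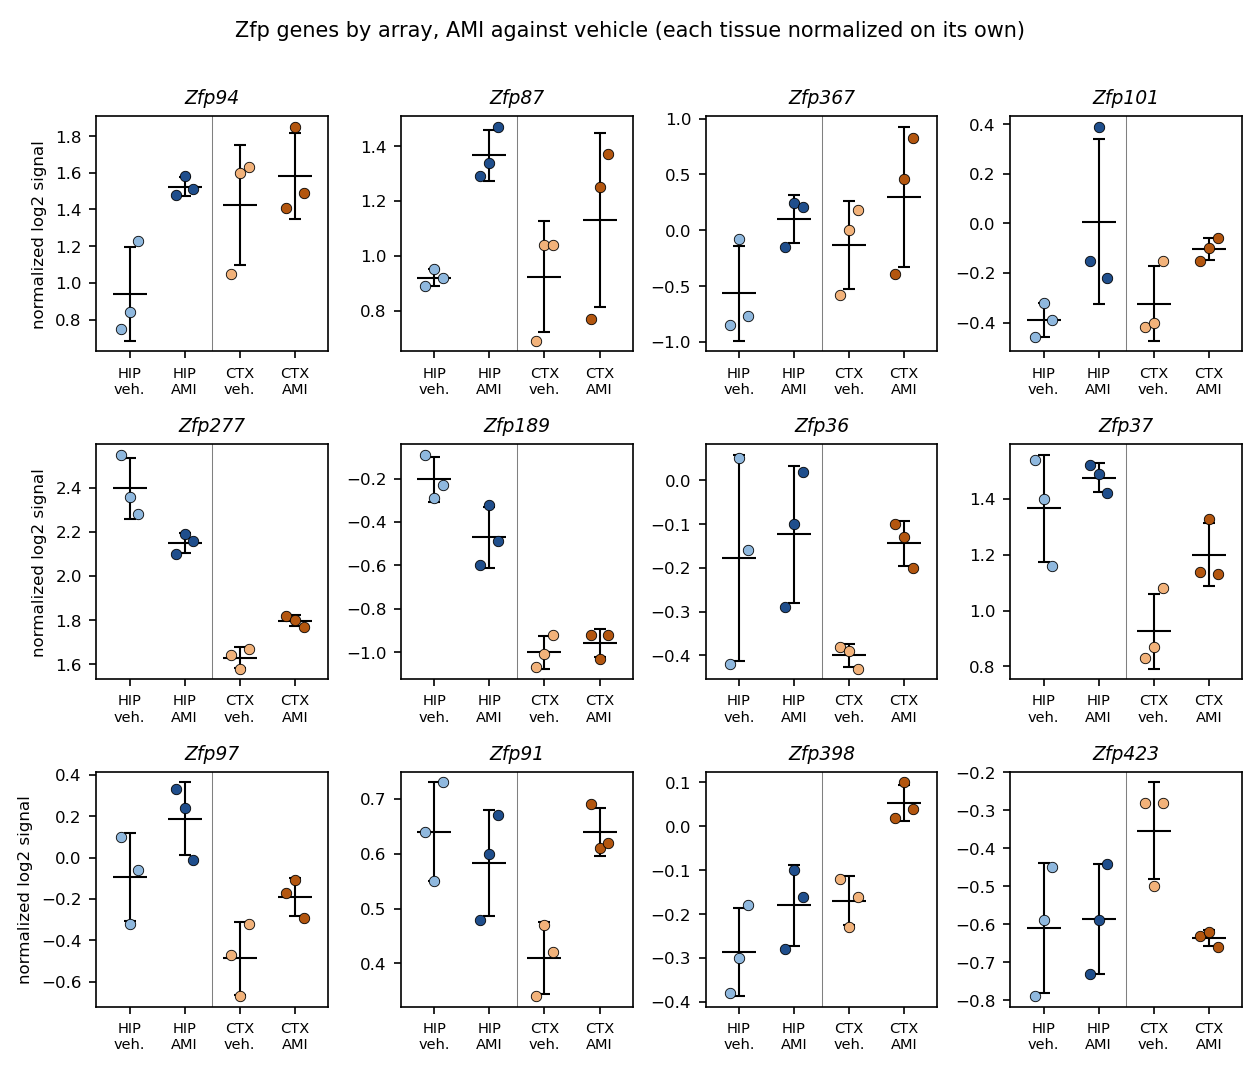
Normalized log2 signal (vertical axis, 0 is the mean of all probes of an array) of 12 Zfp genes on each array, by tissue (HIP, hippocampus; CTX, cortex) and treatment. Points are single arrays, bars the mean ± SD of 3; each tissue was normalized on its own, so hippocampal and cortical heights are not to be compared. In the hippocampus all AMI arrays lie above all vehicle arrays for *Zfp94*, *Zfp87* and *Zfp101* and below them for *Zfp277* and *Zfp189*.

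*Zfp94* lies in a KRAB cluster in band 7qA3, and its nearest neighbours among the selected genes did not share its direction. Only selected genes with a RefSeq promoter window were placed, and other genes of the band were not. By start sites, *Zfp235*, *Zfp93*, *Zfp61*, *Zfp94* and *Zfp428* then follow each other at distances of 138.0, 29.1, 17.1 and 190.4 kb. Their hippocampal differences were -0.59 ± 0.27, -0.32 ± 0.17, -0.02 ± 0.11, 0.58 ± 0.13 and 0.00 ± 0.13 in that order, where *Zfp61* and *Zfp428* were added after their values were seen. *Zfp235* read 0.17, 0.42 and -0.29 on vehicle and -1.12, -0.16 and -0.19 on AMI arrays, and *Zfp93* -0.32, -0.10 and -0.60 on vehicle and -0.97, -0.43 and -0.58 on AMI arrays. For both genes AMI array 1 was the lowest and the groups overlapped, and without it the differences were -0.28 and -0.17. The 3 promoters are shown because these neighbours read in opposite directions. Capitals mark matches to the searched motifs, and in the 250 bases shown only *Zfp93* held one, the ZNF143 core on the opposite strand.
Zfp235, chr7:24132122-24132371, plus strand: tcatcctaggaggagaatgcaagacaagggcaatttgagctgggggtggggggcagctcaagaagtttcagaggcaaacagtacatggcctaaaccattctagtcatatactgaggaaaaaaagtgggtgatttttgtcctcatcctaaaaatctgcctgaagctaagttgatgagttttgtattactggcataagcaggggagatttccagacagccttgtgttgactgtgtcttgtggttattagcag
Zfp93, chr7:24270168-24270417, plus strand: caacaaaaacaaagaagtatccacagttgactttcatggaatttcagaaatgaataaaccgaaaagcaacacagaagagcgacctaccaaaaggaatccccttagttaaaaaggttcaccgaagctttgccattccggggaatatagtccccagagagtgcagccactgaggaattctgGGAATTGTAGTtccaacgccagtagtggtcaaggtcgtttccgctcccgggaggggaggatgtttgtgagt
Zfp94, chr7:24316667-24316916, minus strand: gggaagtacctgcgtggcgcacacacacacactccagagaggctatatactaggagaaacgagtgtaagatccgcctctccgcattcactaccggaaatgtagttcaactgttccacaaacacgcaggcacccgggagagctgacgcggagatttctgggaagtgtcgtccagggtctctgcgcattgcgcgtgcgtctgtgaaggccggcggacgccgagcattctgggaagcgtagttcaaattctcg

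The 250 bases of *Zfp235* held 0 CpG, those of *Zfp93* 8 and those of *Zfp94* 21. Over the 39 tested genes of chromosome 7 the median hippocampal difference was 0.06, as over all Zfp genes.

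The same question was asked in the cortex, where again no gene passed the test. None of 148 genes had an adjusted p under 0.05 (limma over 12944 probes, of which 0% passed; smallest adjusted p of a Zfp gene 0.756). The difference was above 0 for 99 genes and below 0 for 49, or 66.9% above 0 against 57.1% of all probes, with medians of 0.03 and 0.02. After quantile normalization the shares were 52.7% and 49.8%, so in the cortex the tilt depended on the scaling. At an unadjusted p under 0.05, 7 genes were higher and 1 lower, against 4.36% of all probes higher and 1.92% lower. Leaving out single arrays gave between 3 genes (without vehicle array 1) and 15 (without vehicle array 3). The count was 5 without vehicle array 2 and 4 without AMI array 1 or 2. The groups did not overlap for 19 genes (12.8%), against 12.2% of all probes.

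*Zfp36* encodes tristetraprolin, which binds AU-rich elements and speeds the decay of cytokine and immediate early mRNAs. It had the smallest unadjusted p in the cortex among the probes that stand for the genes. It read -0.38, -0.39 and -0.43 on vehicle and -0.10, -0.13 and -0.20 on AMI arrays, without overlap, with a difference of 0.26 ± 0.08 (unadjusted p = 0.0137). In the hippocampus its groups overlapped, with a difference of 0.06 ± 0.14. A dimmer probe of *Zfp326* had a smaller unadjusted p in the cortex (0.007, limma), at 0.39 ± 0.11. Its other dimmer probe gave 0.25 ± 0.10 and its brightest 0.22 ± 0.11.

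*Zfp91*, a ubiquitin ligase of the noncanonical NF-κB pathway, read 0.34, 0.47 and 0.42 on vehicle and 0.69, 0.61 and 0.62 on AMI arrays of the cortex, a difference of 0.23 ± 0.08. *Zfp97* read -0.47, -0.67 and -0.32 on vehicle and -0.17, -0.11 and -0.29 on AMI arrays, a difference of 0.30 ± 0.11 with the uncertain probe named above. For both genes every AMI array was above every vehicle array. *Zfp398* differed by 0.22 ± 0.08, though its other detected probes gave -0.01 ± 0.08 and -0.02 ± 0.09. *Zfp37*, a KRAB gene found in neurons, read 0.83, 0.87 and 1.08 on vehicle and 1.14, 1.33 and 1.13 on AMI arrays, a difference of 0.28 ± 0.10. The other genes with an unadjusted p under 0.05 were *Zfp770* (0.23 ± 0.09) and *Zfp609* (0.21 ± 0.09).

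The gene that read lower was *Zfp423*, a factor of midline and cerebellar development. It read -0.28, -0.50 and -0.28 on vehicle and -0.63, -0.62 and -0.66 on AMI arrays of the cortex, without overlap, with a difference of -0.28 ± 0.09 (unadjusted p = 0.0171). Its second probe gave -0.19 ± 0.10, and both probes gave 0.02 in the hippocampus. *Zfp219* (-0.19 ± 0.10), *Zfp653* (-0.25 ± 0.13), *Zfp365* (-0.20 ± 0.12) and *Zfp316* (-0.19 ± 0.11) came next and had unadjusted p-values from 0.0825 to 0.135. Without vehicle array 2 *Zfp653* was at -0.14 and *Zfp316* at -0.08, and without AMI array 2 *Zfp365* was at -0.08.

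Across the 146 genes tested in both tissues, the hippocampal and cortical differences had a Pearson r of 0.42 and a Spearman rho of 0.35, against 0.11 and 0.10 across all 12430 probes. The comparisons share no arrays. Genes are not independent replicates, so these are descriptions of the gene list. The r of the Zfp genes was 0.32 without *Zfp235* and *Zfp367*, the genes farthest from the hippocampal median, and from 0.37 to 0.46 under the other 3 scalings. Of the 146 genes 76 were above 0 in both tissues (52.1%, against 32.8% of all probes), 16 below 0 in both and 54 in opposite directions. The groups stood apart in both tissues for 2 genes, *Zfp101* in the same direction and *Zfp277* in opposite directions. They were 1.37% of the 146 genes, and 0.764% of all probes stood apart in both tissues.

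**Figure D2:**
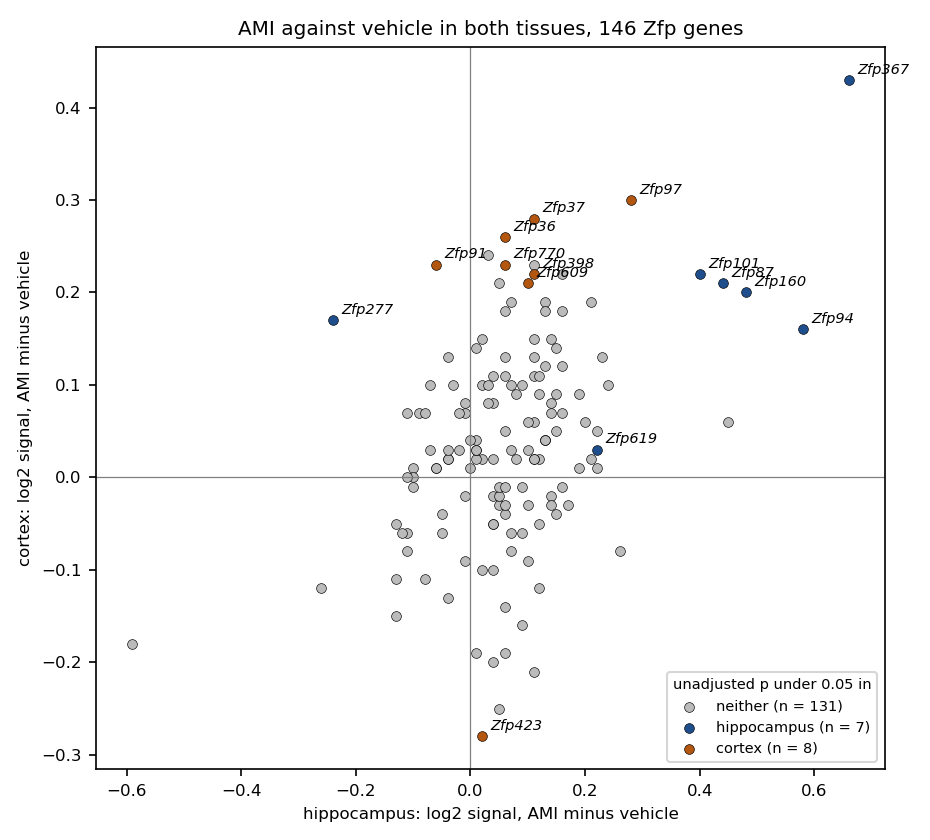
Log2 difference, AMI minus vehicle, in the hippocampus (horizontal axis) and the cortex (vertical axis) for the 146 Zfp genes tested in both; each point is a gene, coloured by the tissue in which its unadjusted p was under 0.05 and named there. No gene had an unadjusted p under 0.05 (limma) in both tissues, and no gene passed at an adjusted p under 0.05 in either. *Zfp367* lies farthest to the upper right, at 0.66 and 0.43, and *Zfp277* lies on the upper left, at -0.24 and 0.17.

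Whether the AMI difference itself differed between tissues was tested as an interaction over all 12 arrays. No Zfp gene had an adjusted p under 0.05 (limma, 0% of 12430 probes; smallest 0.9999). At an unadjusted p under 0.05 there were 2 of 146 genes (1.37%), against 3.03% of all probes. These were *Zfp277*, with a hippocampal minus cortical difference of -0.41 ± 0.12, and *Zfp91*, with -0.30 ± 0.12. *Zfp423* followed with 0.32 ± 0.16.

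The Zfp genes differed more between the tissues than with AMI. Of 146 tested genes 24 were higher in the hippocampus and 21 were lower at an adjusted p under 0.05 (limma over 12430 probes), against 23.9% of all probes higher and 18.5% lower. In all, 45 genes (30.8%) passed against 42.4% of all probes. The median absolute difference was 0.13 over the Zfp genes and 0.20 over all probes. The share that passed grew with brightness, from 15.9% of 63 genes with a mean signal under 150 to 54.3% of 35 genes at 400 or more, where 28.1% and 50.0% of all probes passed. The 6 hippocampal and 6 cortical arrays did not overlap for 29 genes (19.9%), against 22% of all probes.

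The comparison was repeated separately in untreated and treated mice, on disjoint arrays. In both sets the tissues again came from separate tables, so the repeat cannot tell tissue from table. On the vehicle arrays alone 15 genes passed (20% of all probes did), and on the AMI arrays alone 22 (25.6% of all probes). The 11 genes that passed in both had the same direction in both, as did all 45 genes above, whose choice used both sets of arrays. Of all 146 tested genes 110 had the same direction in both. Across the 146 genes the differences of vehicle and AMI arrays had an r of 0.86, and across all probes 0.87. Median centring moved the median of all probes to 0.21 and the split to 38 genes higher and 1 lower, so the balance of directions rests on the scaling; with quantile normalization it was 22 higher and 28 lower.

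**Figure D3:**
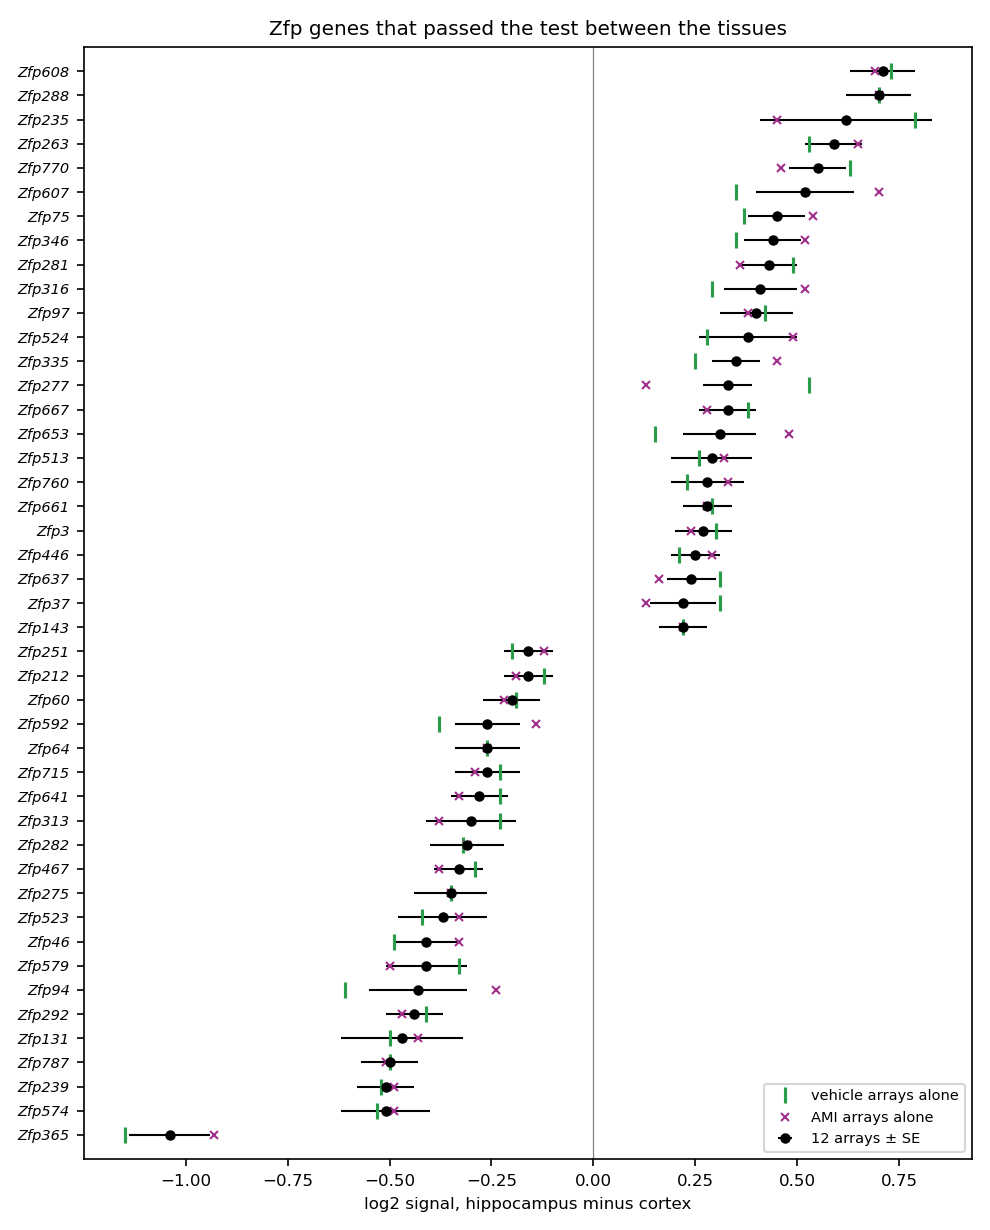
Log2 difference, hippocampus minus cortex (horizontal axis), of the 45 Zfp genes that passed the test, in order; black points with bars are the 12-array value ± SE, green ticks the vehicle arrays alone and purple crosses the AMI arrays alone. *Zfp365* is lowest at -1.04 and *Zfp608* highest at 0.71, and for every gene the vehicle and AMI values lie on the same side of 0.

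*Zfp365*, the brightest Zfp gene, had the largest difference between tissues among the probes that stand for the genes. With all arrays normalized together it read from 3.84 to 4.31 in the hippocampus (median 4.08) and from 4.76 to 5.33 in the cortex (median 5.17). The ranges did not overlap, and the gene was lower in the hippocampus by -1.04 ± 0.10 on the log2 scale (adjusted p = 7.55e-06, limma). The deposited signals had medians of 2939.5 and 4137.7 and overlapped, from 1786.9 to 3814.8 and from 3136.3 to 5589.9, before arrays were scaled. Under median centring the difference was -0.45, smaller than that of *Zfp608*, which lay between 0.65 and 0.98 under all alternatives run.

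*Zfp288*, now *Zbtb20*, which specifies hippocampal CA1 neurons, read from -0.22 to 0.14 in the hippocampus and from -0.86 to -0.59 in the cortex. It was higher in the hippocampus by 0.70 ± 0.08 (adjusted p = 2.68e-05), though its signal was low, with medians of 131.7 and 86.0, and only 3 of the 6 cortical arrays detected it, so the cortical side lies at the edge of background. *Zfp608*, a repressor of the Rag genes in thymocytes, read from 1.95 to 2.19 and from 1.12 to 1.60, higher by 0.71 ± 0.08. *Zfp263* read from 1.91 to 2.24 and from 1.40 to 1.59, higher by 0.59 ± 0.07. The ranges of these 3 genes did not overlap between tissues. *Zfp770* (0.55 ± 0.07), *Zfp346* (0.44 ± 0.07), which encodes a binder of double-stranded RNA, and *Zfp281* (0.43 ± 0.07), a factor of GC-rich promoters in stem cells, were also higher without overlap. *Zfp607* (0.52 ± 0.12) and *Zfp316* (0.41 ± 0.09) were higher with overlapping ranges. *Zfp235* (0.62 ± 0.21, adjusted p = 0.0291) did not pass without any 1 of 6 arrays, vehicle arrays 1 and 2 and AMI arrays 2 and 3 of the hippocampus and vehicle array 2 and AMI array 2 of the cortex, with adjusted p-values from 0.055 to 0.0734.

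After *Zfp365*, the genes lower in the hippocampus were *Zfp239* (-0.51 ± 0.07), whose protein MOK2 binds DNA and RNA, *Zfp574* (-0.51 ± 0.11), *Zfp787* (-0.50 ± 0.07) and *Zfp292* (-0.44 ± 0.07), each without overlap. *Zfp239* read from 1.60 to 1.78 in the hippocampus and from 2.07 to 2.40 in the cortex, and *Zfp787* from 1.87 to 2.12 and from 2.32 to 2.59. *Zfp46* was lower by -0.41 ± 0.08. Of the named lower genes only *Zfp365* passed under median centring, which turned *Zfp46* to 0.07 and left -0.21 for *Zfp239*, -0.15 for *Zfp574*, -0.17 for *Zfp787*, -0.11 for *Zfp292*, -0.19 for *Zfp94*, -0.11 for *Zfp579* and -0.13 for *Zfp131*. *Zfp94* was lower by -0.43 ± 0.12, by -0.61 on vehicle arrays and -0.24 on AMI arrays. *Zfp579* (-0.41 ± 0.10) and *Zfp131* (-0.47 ± 0.15) were lower with overlapping ranges, the latter with the uncertain probe named above and with adjusted p-values from 0.0522 to 0.0639 without any 1 of 5 arrays, namely hippocampal vehicle array 3 and AMI array 2 and cortical vehicle array 1 and AMI arrays 1 and 2.

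**Figure D4:**
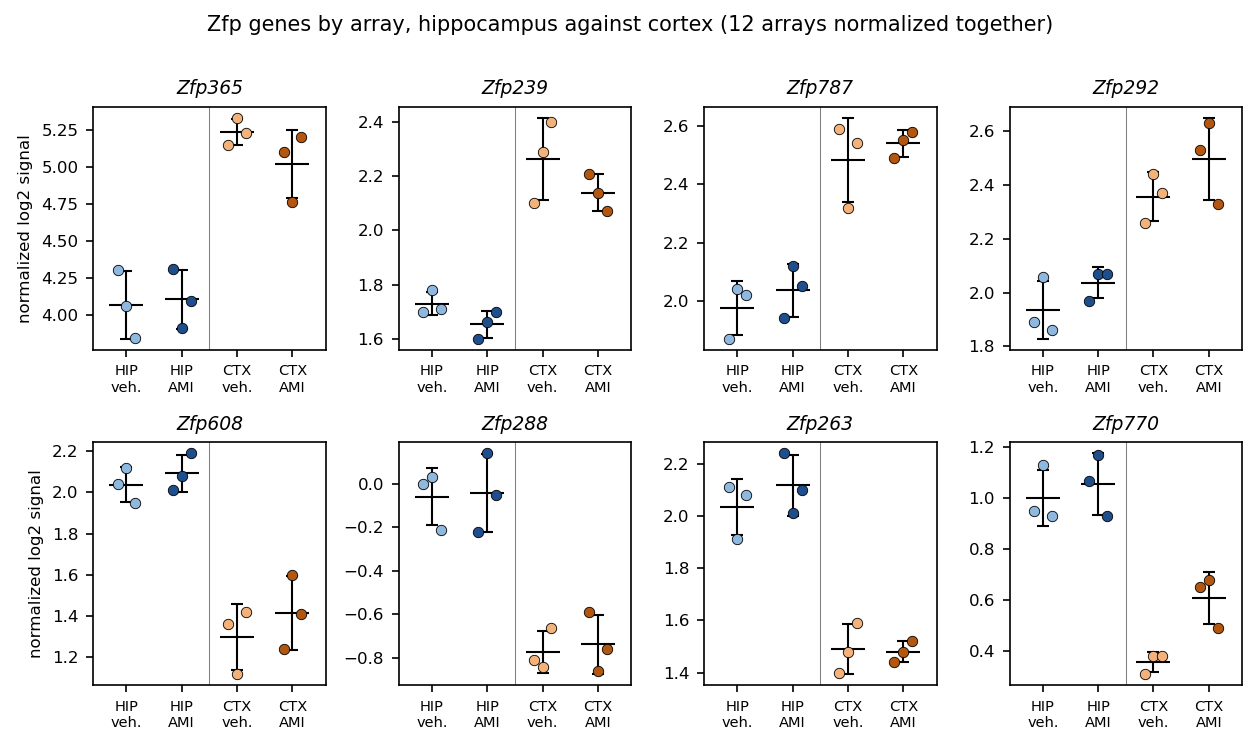
Normalized log2 signal (vertical axis, all 12 arrays normalized together) of 8 Zfp genes on each array, by tissue and treatment. Points are single arrays, bars the mean ± SD of 3. The upper row holds genes lower in the hippocampus and the lower row genes higher there; the tissues do not overlap in any of the 8 panels.

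The promoter of *Zfp365*, with the smallest p-value among the genes lower in the hippocampus, and that of *Zfp263*, which shared the smallest among the higher genes with *Zfp608*, are shown. Capitals mark TATAAA, the E box and the GC box (on the opposite strand) in *Zfp365*, and the GC box (again on the opposite strand), CCAAT and the ETS motif in *Zfp263*. The GC box was found in 50.4% of the windows of Zfp genes, in 35.9% of those of all genes and in 64.3% of those of detected genes. The ETS motif was found in 20.8%, 9.1% and 17.6%, CCAAT in 44.8%, 37.9% and 38.9%, and the E box in 6.4% and 7.2%, and in 727 of the 7274 windows of detected genes.
Zfp365, chr10:67912663-67912912, minus strand: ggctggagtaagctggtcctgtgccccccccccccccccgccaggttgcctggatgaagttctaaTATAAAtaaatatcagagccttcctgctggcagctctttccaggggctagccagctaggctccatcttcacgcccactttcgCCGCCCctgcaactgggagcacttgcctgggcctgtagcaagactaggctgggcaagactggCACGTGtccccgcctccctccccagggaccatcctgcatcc
Zfp263, chr16:3743849-3744098, plus strand: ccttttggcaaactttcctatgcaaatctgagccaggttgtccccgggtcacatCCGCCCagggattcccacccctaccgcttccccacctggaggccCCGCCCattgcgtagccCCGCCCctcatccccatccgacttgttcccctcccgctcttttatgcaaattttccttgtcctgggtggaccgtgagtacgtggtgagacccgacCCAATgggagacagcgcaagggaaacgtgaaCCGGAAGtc

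For 32 genes 2 or more probes were detected, and in 5 of these the tissue difference of another probe was more than 0.5 away from that of the brightest. In *Zfp523*, whose protein is a paralog of that of *Zfp143*, the brightest probe was lower in the hippocampus (-0.37 ± 0.11) and the other probe higher (0.57 ± 0.08, adjusted p = 7.88e-05), from 0.88 to 1.22 against 0.31 to 0.57. Median centring turned the first to 0.21. In *Zfp75*, now *Zfp317*, the brightest probe was higher (0.45 ± 0.07, adjusted p = 0.000374) and another lower (-0.29 ± 0.08, adjusted p = 0.0115). In both genes the probes lie on the same transcript record of the annotation, starting at bases 2650 and 2046 in *Zfp523* and at bases 3726 and 2479 in *Zfp75*.

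The second probes of *Zfp787* (0.07 ± 0.06) and *Zfp292* (0.07 ± 0.08) did not pass, where the brightest probes had been lower by -0.50 and -0.44. For *Zfp238*, the brightest probe gave 0.21 ± 0.10 (adjusted p = 0.117) and the next brightest (mean signal 2434.6), on another transcript record, 1.09 ± 0.15 (adjusted p = 8.69e-05). That probe read from 4.08 to 4.94 in the hippocampus and from 3.21 to 3.46 in the cortex. The other tested probes of *Zfp238* gave 0.01 ± 0.16 and -0.13 ± 0.07 and did not pass. A difference between tissues for these 5 genes is therefore given per probe and not per gene.

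**Figure D5:**
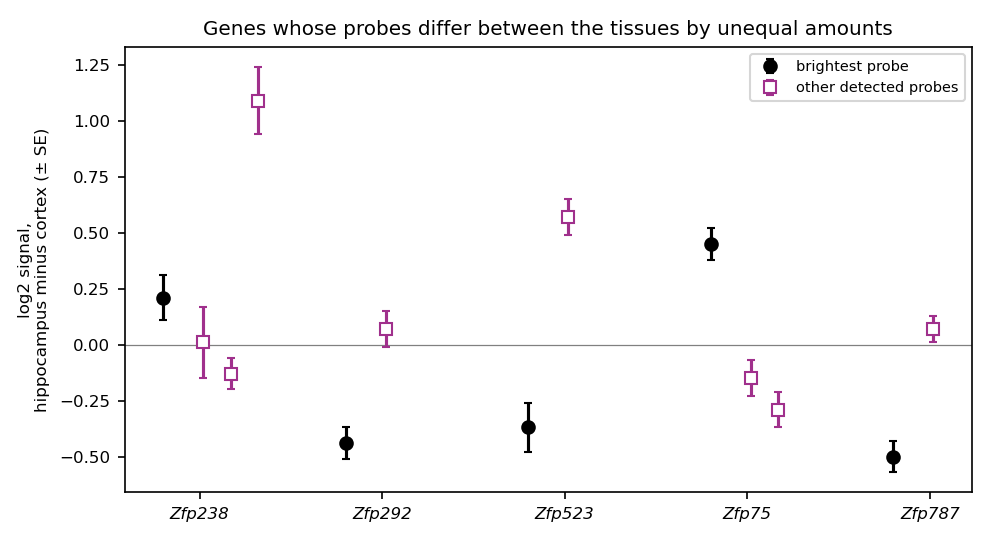
Log2 difference, hippocampus minus cortex ± SE (vertical axis), of every tested probe of the 5 Zfp genes whose probes differ by more than 0.5. Black circles are the brightest probe of each gene and open squares the others. In each of the 5 genes the circle and a square lie on opposite sides of 0. Only in *Zfp523* and *Zfp75* did a circle and a square on opposite sides both pass the test.

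Grouped by role, 8 of 12 listed genes of neural development and patterning were detected. Between tissues 2 were higher in the hippocampus (*Zfp288*, and *Zfp335*, needed by neural progenitors, at 0.35 ± 0.06) and 2 lower (*Zfp365* and *Zfp292*), 4 of 8 where 42.4% of all probes passed. *Zfp238*, *Zfp423*, *Zfp521* (-0.14 ± 0.07) and *Zfp536* (0.17 ± 0.12) did not pass. With AMI their median difference was 0.02 (hippocampus) and -0.07 (cortex).

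Of 10 listed genes that bind RNA or act at the ribosome 9 were detected. Between tissues *Zfp346* passed among 8 tested, where 42.4% of all probes passed. All 8 differences were above 0, as were 54.1% of those of all probes, with a median of 0.16, and those of *Zfp326* and *Zfp622* were 0.01. The other detected probes of *Zfp326* gave 0.29 ± 0.10 (adjusted p = 0.0294, limma) and 0.20 ± 0.10 (adjusted p = 0.11). *Zfp259*, now *Zpr1*, was at 0.20 ± 0.08 (adjusted p = 0.0532) and *Zfp207*, a spindle assembly factor, at 0.32 ± 0.13 (adjusted p = 0.0642). Of the 6 general transcription factors, all detected, 3 passed, where 42.4% of all probes did. *Zfp281* and *Zfp143* (0.22 ± 0.06) were higher in the hippocampus and *Zfp131* lower, while *Zfp148* (0.15 ± 0.09), *Zfp161* (0.15 ± 0.07) and *Zfp219* (0.01 ± 0.07) did not pass. *Zfp110* and *Zfp369*, whose proteins bind the p75 neurotrophin receptor, were on the array but not detected by the rule. *Zfp42*, the pluripotency marker Rex1, was listed as detected at a mean signal of 88.3 and differed by -0.04 ± 0.07 between tissues.

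The corepressor machinery through which KRAB proteins act was given for comparison. Of 34 listed genes 28 were on the array and 24 detected. Between tissues 5 were higher in the hippocampus, among them *Gatad2b* (0.77 ± 0.09) and *Setdb1* (0.25 ± 0.08), and 6 lower, among them *Sumo3* (-1.17 ± 0.14) and *Cbx5* (-0.43 ± 0.09). Of all probes 23.9% passed as higher and 18.5% as lower. *Trim28* differed by -0.09 ± 0.08. With AMI none of the 24 passed in either tissue. The median differences were 0.08 (hippocampus) and 0.03 (cortex). At an unadjusted p under 0.05, 1 of the 24 was higher in the hippocampus and none lower, against 1.44% and 0.904% of all probes. In the cortex 1 was higher, *Cbx5* (0.34 ± 0.12), and 2 lower, *Trim28* (-0.25 ± 0.09) and *Mta1* (-0.21 ± 0.09), against 4.36% and 1.92% of all probes.

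Markers of other cell types also read differently between groups, though with AMI none had an adjusted p under 0.05. Of 9 oligodendrocyte markers all 9 were below 0 after AMI in the hippocampus, with a median of -0.49. At an unadjusted p under 0.05, 4 were lower, against 0.904% of all probes, and 0 passed at an adjusted p under 0.05. Choroid plexus markers were below 0 there for 5 of 5, with a median of -1.03, and vehicle array 3 carried the high *Ttr* signal. In the cortex the 5 striatal markers had a median of -0.30 after AMI, and 2 were lower at an unadjusted p under 0.05, *Drd2* (-0.51) and *Rgs9* (-0.59). Of all probes 1.92% were lower there at that threshold. Between tissues 6 of 7 microglial markers were higher in the hippocampus (median 0.43) and 3 of 5 neuronal markers lower (median -0.32). Of all probes 23.9% passed as higher and 18.5% as lower. Their part in the Zfp values was not tested.

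Genes also varied in how much replicates spread. The median residual SD of the Zfp genes was 0.123 for hippocampal and 0.123 for cortical arrays, against 0.146 and 0.133 over all probes. The widest were *Zfp706* (SD within groups 0.47), *Zfp367* (0.45), *Zfp235* (0.45) and *Zfp68* (0.35), named after their values were seen. *Zfp706* read 0.11, -1.05 and 0.62 on the 3 AMI arrays of the hippocampus, a span wider than any difference between groups of a Zfp gene.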

How the data were processed

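Mean bead signals were deposited by the authors as linear intensities, neither normalized nor background-subtracted, each beside a deposited detection p-value (BeadStudio 3.4 for hippocampus and GenomeStudio 1.1.1 for cortex, per the labels; genome build of the probe annotation not given in the sources used here). Log2 signals were centred on each array's mean, divided by its SD over 25697 probes and rescaled by the fitted arrays' mean SD. Probes detected (p-value no higher than 0.05) by 3 or more of a tissue's 6 arrays (in each tissue, for comparisons between tissues) were tested with limma 3.58.1 in R 4.3.3 (lmFit, eBayes, Benjamini-Hochberg over all tested probes, threshold 0.05), checked on simulated data. Unadjusted p-values are from the same fit. With 3 arrays per group, the number of arrays limits the precision.

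The genes and lists were chosen with earlier results of these data known. Named genes are those the study lists, per tissue and direction the 5 smallest unadjusted p with AMI, the 10 largest tissue differences that passed per direction, the 3 smallest interaction p, the 5 brightest and 5 dimmest, the role lists, genes at the detection edge and genes with unequal probes; others are named as chosen after their values were seen or complete a count. Deviations of same-numbered AMI and vehicle arrays from their group means correlated at 0.61, 0.30 and 0.29 in the hippocampus and at -0.06, 0.33 and 0.33 in the cortex. The labels state no pairs. The main fits used no pairing, and the number entered as a block only in alternative fits. RefSeq matched all 153 genes, 13 under another symbol, and gave the promoters. Alternatives were quantile normalization, median centring, neqc, other detection filters, variance models, array weights, blocks, the methods' t-test, the mean of a gene's probes, other sets of arrays and leaving out each array. Python 3.11.15 with pandas 2.3.3, Biopython 1.88 and matplotlib 3.10.9 was used.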

Additional observations from a re-analysis of the deposited data

How the results depend on the processing

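No Zfp gene passed with AMI in either tissue, nor for the interaction, under any alternative run. The numbers at an unadjusted p under 0.05 moved. In the hippocampus the 8 became 3 with median centring, 4 where every array had to detect a probe at 0.01, 16 with array weights and 18 with the replicate block, and 4 to 11 on leaving out single arrays. In the cortex the 8 became 4 with median centring, 13 with no detection filter and 23 with array weights, and 3 to 15 on leaving out single arrays. For the interaction the 2 became 0 with median centring, 4 with no detection filter, 17 with array weights and 1 with the replicate block, and 1 to 4 on leaving out single arrays. Between the tissues the 45 became 69 with array weights, 15 on the vehicle arrays alone and 22 on the AMI arrays alone, where fewer arrays entered, and 38 to 44 on leaving out single arrays; the replicate block changed no other count by over 1.5 times. The median tissue difference of the Zfp genes, 0.03, turned to -0.01 with quantile normalization and -0.01 with neqc. Directions turned for *Zfp94* in the cortex (-0.03 to 0.26 on leaving out single arrays), and between tissues for *Zfp46* (0.07) and *Zfp523* (0.21) with median centring, and for *Zfp523* (0.10) with the mean of its probes. The causes were not tested. Signals near background limit what could be seen in the dim genes.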
